A study of Mus musculus with 6 samples.

Results

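The genes described here are 41 known imprinted genes of the mouse, taken by symbol from the 53801 genes of the count table. In an imprinted gene the copy inherited from a single parent is active and the other is silent. In many of them, though not all, this goes through DNA methylation laid down in egg or sperm at a control region. Many such genes lie in clusters that share a control region and a long noncoding RNA, and several regulate growth, placental function and the fate of mesenchymal and fat precursor cells. The list was put together because Rian is far lower and Peg10 far higher in the knockout, so the differences between genotypes in these genes are given as a description, without a p-value, and the counts of called genes support nothing beyond themselves.

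The libraries came from cells of the stromal vascular fraction, which is what remains of fat tissue once adipocytes are removed. They were isolated from mouse inguinal white fat and kept under adipogenic induction for 4 days. There were 3 libraries from Ythdf1 knockout mice and 3 from wild-type mice, called biological replicates by the series. Ythdf1 encodes a cytoplasmic reader of the m6A mark on RNA. The knockout allele, the strain and the age of the mice were not given in the sources used here, and both genotypes received the same induction. Ythdf1 itself stood at 45.1, 42.8 and 43.5 CPM (counts scaled to library size) in knockout replicates 1 to 3 and at 63.0, 62.1 and 60.4 CPM in wild-type replicates 1 to 3. It was lower in each knockout library, and its level remained at 0.709 of that in wild type. Which exons the allele lacks is not stated in the labels.

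Total counts ran from 16619605 to 20089138 per library, so that 3 counts, taken as the floor, corresponded to 0.149 to 0.181 CPM. CPM were computed from library totals with TMM factors, and means are given ± SD with n = 3 per genotype. A gene was called when its adjusted p in edgeR's quasi-likelihood test across 14816 tested genes was under 0.05. Adipocyte markers were present in all libraries, and 10 of 10 were called higher in knockout. Their summed level was 16006 to 21684 CPM in knockout against 3750 to 5713 CPM in wild type. In the other direction, 7 of 10 fibroblast and progenitor markers were called lower, with a summed level of 17924 to 19256 CPM against 38263 to 41624 CPM. All 6 smooth muscle markers were called lower, at 104 to 131 CPM against 680.2 to 1030 CPM, as were all 6 cell division markers. The 8 macrophage markers were all called higher, at 149 to 373 CPM against 49.3 to 58.5 CPM, and the 9 gut epithelium markers all lower, at 0.330 to 3.01 CPM against 50.2 to 67.3 CPM. The skeletal muscle regulators Myod1, Myog, Myf5 and Pax7 were at 0 in every library, and 0 of 5 endothelial markers were called. Of 7 neural markers, 3 were tested, with 2 called higher and 1 lower. The summed level of the 7 was 40.1 to 51.3 CPM in knockout against 40.6 to 49.8 CPM in wild type. Beside these counts, 44.3% of all tested genes were called, 22.6% higher and 21.7% lower. These marker differences run along with genotype, and their part in the levels of the imprinted genes was not tested. In bulk RNA, fewer cells of a type and less RNA per cell cannot be told apart.

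Sequences are shown for the noncoding RNAs of the list that host microRNAs and were called lower. Meg3, Rian and Mirg are long noncoding RNAs of chromosome 12 and H19 is a long noncoding RNA of chromosome 7, and each of these transcripts carries microRNA precursors. In the RefSeq microRNA table for GRCm38.p6, 3 mature microRNAs lay inside Meg3, 6 inside Rian, 26 inside Mirg and 2 inside H19 on the same strand. The mature sequences inside H19, Meg3 and Rian follow, 5′ to 3′, with the seed (bases 2 to 8) in capitals:
miR-675-5p: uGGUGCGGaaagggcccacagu
miR-675-3p: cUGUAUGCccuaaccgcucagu
miR-1906: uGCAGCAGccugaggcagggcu
miR-770-5p: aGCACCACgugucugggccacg
miR-770-3p: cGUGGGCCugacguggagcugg
miR-341-5p: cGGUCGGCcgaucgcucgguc
miR-341-3p: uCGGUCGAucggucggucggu
miR-1188-5p: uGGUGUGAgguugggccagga
miR-1188-3p: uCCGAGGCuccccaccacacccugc
miR-370-5p: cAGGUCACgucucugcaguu
miR-370-3p: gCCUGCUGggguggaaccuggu

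No seed was shared among these 11, so each belongs to a different seed group. The single seed that recurred among microRNAs hosted by the listed genes was that of a pair inside Mirg, shown because the members of a seed group are usually treated as having overlapping targets:
miR-453: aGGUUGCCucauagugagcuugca
miR-496a-5p: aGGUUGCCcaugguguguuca

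miR-675 lies in H19 at chr7:142577112-142577133 for the 5p arm. miR-770 lies in Meg3 at chr12:109563710-109563731 for the 5p arm, and miR-370 lies in Rian at chr12:109618305-109618326 for the 3p arm. The libraries were made from ribosomal-RNA-depleted total RNA and count long transcripts, so levels of the mature microRNAs were not measured.

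Promoter windows of 300 bases (250 before to 50 after the start) were in the RefSeq table for GRCm38.p6 for 34 of the 41 genes. The windows of Meg3, Rian and Dlk1 are shown because Meg3 and Rian share a strand, a cluster and a large difference, while Dlk1 shares the cluster without it. All 3 are on the plus strand. Capitals mark TGACGTCA, the palindromic cAMP response element, and TGCCGC (on either strand), the core bound by the imprint protector ZFP57 when methylated:
Meg3, first of 2 windows, chr12:109540746-109541045: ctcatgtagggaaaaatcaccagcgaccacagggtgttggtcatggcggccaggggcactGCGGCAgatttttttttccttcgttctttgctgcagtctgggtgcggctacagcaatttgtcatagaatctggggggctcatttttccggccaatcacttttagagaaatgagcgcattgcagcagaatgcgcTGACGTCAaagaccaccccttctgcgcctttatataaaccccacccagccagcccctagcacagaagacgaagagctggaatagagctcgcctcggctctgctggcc
Rian, chr12:109603695-109603994: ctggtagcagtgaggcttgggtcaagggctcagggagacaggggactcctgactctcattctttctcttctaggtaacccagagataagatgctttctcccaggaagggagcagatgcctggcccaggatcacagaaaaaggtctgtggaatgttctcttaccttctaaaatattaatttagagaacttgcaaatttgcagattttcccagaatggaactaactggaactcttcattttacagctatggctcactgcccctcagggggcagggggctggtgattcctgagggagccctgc
Dlk1, chr12:109452573-109452872: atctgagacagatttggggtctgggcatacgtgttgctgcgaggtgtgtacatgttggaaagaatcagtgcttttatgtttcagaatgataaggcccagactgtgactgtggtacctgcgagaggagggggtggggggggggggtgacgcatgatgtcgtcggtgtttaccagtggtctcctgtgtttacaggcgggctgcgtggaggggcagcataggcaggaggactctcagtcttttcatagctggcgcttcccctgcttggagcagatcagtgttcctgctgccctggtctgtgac

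The printed Meg3 window held 1 TGACGTCA, at position -57 from the start, and 1 TGCCGC, at position -190. The table holds another Meg3 window, chr12:109545148-109545447, with 1 CpG and neither motif. Neither motif was in the Rian or Dlk1 window. TGACGTCA was in 4 of the 56 windows of the listed genes, against 1.79% of all 32851 windows. Besides Meg3 these were a window of Zdbf2 and the windows of Peg3 and Usp29, which lie head to head and share the same copy. TGCCGC was in 12 of the 56 windows, from 11 genes, against 11.6% of all windows. CpG dinucleotides numbered 13 in the printed Meg3 window, 9 in that of Dlk1, 10 in that of Mirg, 25 in that of Dio3 and 0 in that of Rian, and the median over all windows was 7. A match is a run of letters, and binding or methylation was not measured.

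Of the 41 genes, 35 had enough counts to be tested and 6 did not. In the knockout, 4 of the 35 were called higher (Peg10, Ppp1r9a, Slc22a3 and Kcnq1ot1) and 14 lower, 51.4% in all, where 44.3% of all tested genes were called, 22.6% higher and 21.7% lower. With a log2 fold change of at least 1 in size, 3 were higher and 9 lower, and 15.6% of all genes were called at that size. Of the 990 tested long noncoding genes of the table, the class of Meg3, Mirg and H19, 23.1% were called and 11.1% were called lower. The values of the 2 genotypes did not overlap in 21 of the 35, against 55.2% of all tested genes. The median log2 fold change, knockout over wild type, was -0.43 in the listed genes and 0.01 in all genes. As a share of the library, the 41 genes took 0.119% to 0.134% of counts in knockout against 0.199% to 0.227% in wild type. Meg3 and Rian, whose levels are given next, had the largest differences in counts.

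**Figure D1:**
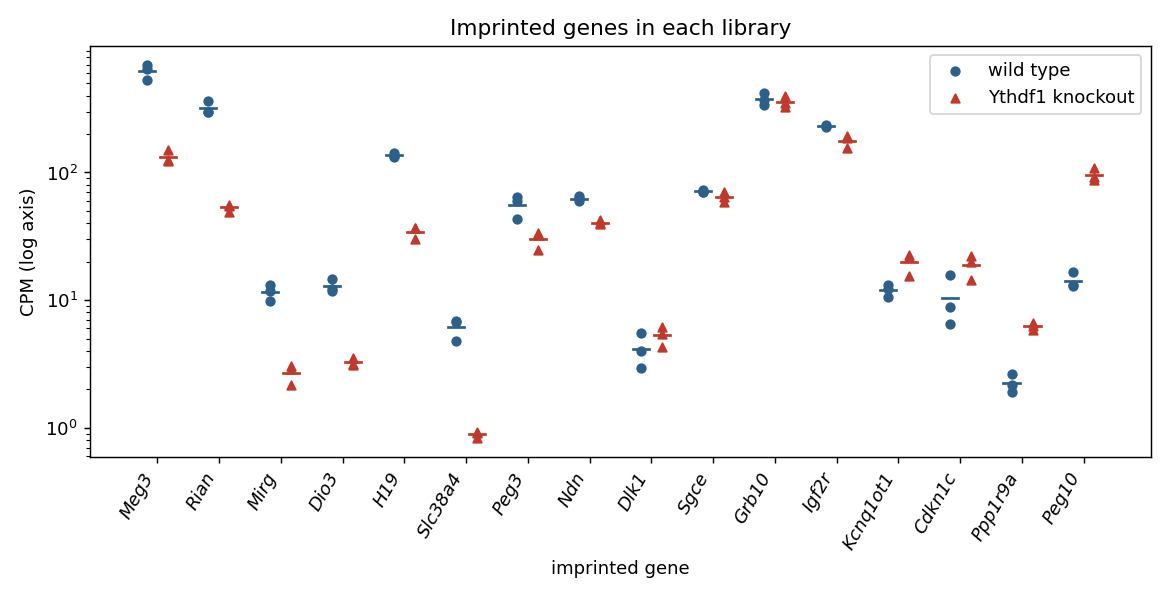
Level of 16 imprinted genes in each library (y axis, CPM on a log axis; points, single libraries; horizontal bars, means of 3). Meg3, Rian, Mirg, Dio3, H19 and Slc38a4 are separated by genotype with the knockout lower, Ppp1r9a and Peg10 with the knockout higher, and Dlk1, Sgce, Grb10 and Cdkn1c overlap.

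The Dlk1-Dio3 cluster of chromosome 12 showed the largest set of lower genes. From the maternal chromosome it gives the noncoding RNAs Meg3, Rian and Mirg, and from the paternal chromosome it gives Dlk1, Rtl1 and Dio3. Rian (109603940 to 109661716, GRCm38), which hosts small nucleolar RNAs, stood at 54.9, 55.5 and 49.1 CPM in knockout replicates 1 to 3 and at 365, 298 and 299.5 CPM in wild-type replicates 1 to 3. Every knockout library was thus far below every wild-type library. The means were 53.2 ± 3.56 and 321 ± 38.1 CPM, a level 6.03-fold higher in wild type (log2 fold change -2.59 ± 0.11 SE). Among 14816 genes ordered by fold change, Rian was number 159 from the lowest.

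Meg3, the noncoding RNA at the 5′ end of the maternal transcripts, read 149.7, 123 and 125 CPM in knockout against 699, 534 and 649.7 CPM in wild type. The groups were far apart, with means of 133 ± 14.9 and 628 ± 85.0 CPM (log2 fold change -2.24 ± 0.13). Mirg, the microRNA host at the 3′ end, read 3.02, 2.16 and 2.88 CPM against 13.2, 9.89 and 11.7 CPM (log2 fold change -2.10 ± 0.19). These 3 RNAs lie on the plus strand within 208 kb, from the start of Meg3 at 109541001 to the end of Mirg on GRCm38, and all were lower in every knockout library. Meg3 gave 2.50 ± 0.26 counts per Rian count in knockout and 1.96 ± 0.19 in wild type, so the ratio between them moved far less than either level.

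Dio3, which encodes the deiodinase that inactivates thyroid hormone, was at 3.13, 3.13 and 3.51 CPM in knockout against 12.2, 11.7 and 14.5 CPM in wild type, again without overlap (log2 fold change -1.97 ± 0.16). Rtl1, a retrotransposon-derived gene, was low throughout, at 0.935, 0.455 and 0.536 CPM against 2.15, 2.04 and 1.37 CPM (log2 fold change -1.52 ± 0.39). It is transcribed opposite to the maternal RNAs and its exons overlap microRNA genes of the other strand over 8.12% of their length. Since the strand setting of the counting is not given in the sources used here, reads of the 2 strands may be mixed there.

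Dlk1 was not among the lower genes. It encodes preadipocyte factor 1, a transmembrane inhibitor of adipocyte formation. Its level was 5.39, 6.19 and 4.29 CPM in knockout against 3.96, 2.97 and 5.54 CPM in wild type, so the groups overlapped and the gene was not called (log2 fold change 0.34 ± 0.25). Its gene ends 77664 bases before the start of Meg3. Begain, at the proximal end of the cluster, was not called either (log2 fold change -0.59 ± 0.24). The cluster thus had 5 of 7 genes called lower and 0 higher, beside 21.7% and 22.6% of all tested genes. Its median log2 fold change was -1.97.

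Other transcripts inside the same interval could be read too. Dio3os, the noncoding RNA divergent to Dio3, was at 3.13, 3.98 and 5.17 CPM in knockout against 11.3, 9.14 and 9.54 CPM in wild type, and was called lower (log2 fold change -1.28 ± 0.20). Gm26945, a noncoding gene within the span of Rian, had 3, 3 and 4 counts against 18, 25 and 29 counts. Other transcripts there were too low to test and were not all lower. Gm37899 had 0, 0 and 2 counts in knockout against 3, 4 and 3, and Gm40576 had 0, 0 and 1 against 3, 3 and 8. The genotypes overlapped in B830012L14Rik (3, 4 and 2 against 1, 4 and 4) and Gm3379 (2, 4 and 5 against 1, 2 and 4). Small RNA genes were hardly counted: 21 of 69 annotated microRNA genes held any count, 17 in all in knockout and 61 in wild type. The 23 small nucleolar RNA genes, of which 5 held counts, gave 18 and 99 counts. Reads of small RNA genes and of their host transcripts cannot be told apart in these counts. Outside the interval, the 5 nearest tested protein-coding genes on each side had log2 fold changes from -0.46 to 0.52, with 2 called higher (Wars and Wdr20) and 1 lower (Ppp2r5c).

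**Figure D2:**
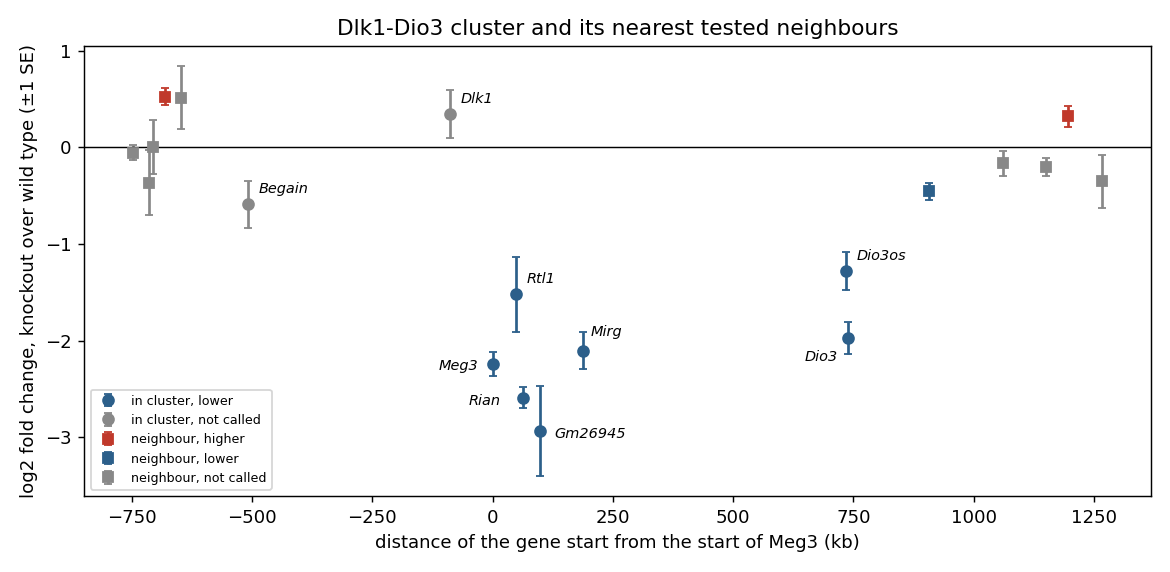
Log2 fold change, knockout over wild type (y axis, bars ±1 SE), by distance of the gene's left end from the start of Meg3 in kb (x axis). Circles are genes of the Dlk1-Dio3 cluster and squares the 5 nearest tested protein-coding genes on each side, coloured by call. Genes from Meg3 to Dio3 lie between -2.94 and -1.28, while Dlk1 and the neighbours lie between -0.46 and 0.52 and Begain at -0.59.

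H19, the maternally expressed growth-restraining noncoding RNA on chromosome 7 (142575529 to 142578143, GRCm38), was the listed gene with the highest level per length in wild type, at 55.5 CPM per kb of exon. It read 36.5, 36.7 and 30.1 CPM in knockout against 133, 142 and 134 CPM in wild type. The groups did not overlap, and the mean was 3.96-fold higher in wild type (34.4 ± 3.75 against 136 ± 4.88 CPM, log2 fold change -1.99 ± 0.10). Igf2, the fetal growth factor that shares its enhancers and control region, had 1, 0 and 0 counts in knockout against 1, 1 and 0 counts in wild type. No comparison was possible for Igf2 at this depth. Its annotated exons also lie by 62.8% within those of another gene model on the same strand, Gm49394, which held 0 counts in every library, so reads shared between them may have been left uncounted.

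The Peg10-Sgce cluster of chromosome 6 held the largest increase. Peg10 (4747306 to 4760517, GRCm38), a retrotransposon-derived gene needed for the placenta, read 109, 88.0 and 91.6 CPM in knockout against 12.8, 13.2 and 16.7 CPM in wild type. The lowest knockout library was well above the highest wild-type library. The means were 96.3 ± 11.3 and 14.2 ± 2.14 CPM, 6.76-fold higher in knockout (log2 fold change 2.76 ± 0.13).

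Sgce encodes epsilon-sarcoglycan, starts 98 bases from Peg10 in the opposite direction and is also expressed from the paternal copy. It was at 64.2, 70.3 and 58.9 CPM in knockout against 73.1, 69.7 and 70.6 CPM in wild type, overlapping and not called (log2 fold change -0.14 ± 0.09). Peg10 therefore gave 1.502 ± 0.229 counts per Sgce count in knockout and 0.200 ± 0.032 in wild type. Ppp1r9a, which encodes the actin-binding protein neurabin, was called higher, with 5.88, 6.31 and 6.68 CPM in knockout against 1.92, 2.16 and 2.63 CPM in wild type (log2 fold change 1.49 ± 0.21). Asb4, an ankyrin repeat and SOCS box gene, was not called (log2 fold change -0.60 ± 0.40). The cluster thus had 2 of 4 genes called higher and 0 lower, beside 22.6% and 21.7% of all tested genes.

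In the Kcnq1ot1 cluster of chromosome 7, the paternal noncoding RNA Kcnq1ot1 rose, which represses in cis the paternal copies of its maternally expressed neighbours. It read 22.8, 15.5 and 21.9 CPM in knockout against 10.5, 12.2 and 13.1 CPM in wild type (log2 fold change 0.75 ± 0.16). Cdkn1c, which encodes the cyclin-dependent kinase inhibitor p57 and is among those neighbours, read 20.1, 22.2 and 14.4 CPM against 6.45, 8.90 and 15.7 CPM. It was not called, and wild-type replicate 3 lay above knockout replicate 3 (log2 fold change 0.87 ± 0.31). Without wild-type replicate 3 the log2 fold change was 1.30 and the gene passed the threshold. Its exons overlap another gene model, Gm44732, on the other strand over 30.7% of their length. Of the other listed genes there, Slc22a18 (-0.50), whose genotypes did not overlap, and Ascl2 (-0.52) were not called. Among unlisted genes inside the interval, Cd81 was called lower (-0.49), while R74862 (-0.35) and Tssc4 (-0.13) were not called. Phlda2 had 6 counts in wild-type replicate 2 and 0 elsewhere.

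In the Peg3 cluster of proximal chromosome 7, both tested genes were called lower, beside 21.7% of all tested genes. Peg3, a zinc finger gene expressed from the paternal copy, read 33.5, 32.4 and 24.6 CPM in knockout against 60.2, 42.9 and 64.2 CPM in wild type (log2 fold change -0.89 ± 0.16). Zim1, its maternally expressed neighbour, had means of 3.71 ± 1.30 and 6.36 ± 0.55 CPM (log2 fold change -0.79 ± 0.26). The call of Zim1 was lost without knockout replicate 3 (-0.51), wild-type replicate 2 (-0.73) or wild-type replicate 3 (-0.77). Usp29, divergent to Peg3, had 0 to 6 counts per library and was not tested.

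In the Snrpn-Ndn cluster, which corresponds to the human Prader-Willi region, Ndn and Peg12 were called lower. Ndn encodes necdin, a growth suppressor, and fell from 62.5 ± 2.55 to 40.5 ± 1.39 CPM (log2 fold change -0.63 ± 0.08). Peg12 was low, at 1.92, 0.909 and 0.634 CPM in knockout against 3.85, 2.22 and 2.46 CPM in wild type (log2 fold change -1.31 ± 0.41), and lost its call without knockout replicate 2 or 3 or wild-type replicate 1. Snrpn, a spliceosome component, was not called (log2 fold change 0.11 ± 0.19), nor was Mkrn3 (-0.24 ± 0.43). Exons of Snrpn share 27.3% of their length with other genes of the same strand, among them Snurf, which held 0 counts. Magel2 was at 0 in every library. Among unlisted genes inside this interval, the low noncoding genes Gm9801 (-1.62) and A330076H08Rik (-1.04) were called lower. A230057D06Rik (-0.75) and Gm10297 (0.41) were not called.

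The Igf2r-Airn cluster of chromosome 17 pairs a maternal receptor with a paternal antisense RNA. Igf2r, which clears IGF2 and carries lysosomal enzymes, was at 191, 155 and 186 CPM in knockout against 234, 230.0 and 226 CPM in wild type (log2 fold change -0.37 ± 0.10). All knockout libraries were below all wild-type libraries, by a small margin. Airn, the antisense RNA, was not called (4.05 ± 0.64 against 3.71 ± 0.37 CPM). Slc22a3, an organic cation transporter, read 3.74, 2.56 and 7.99 CPM against 1.19, 1.98 and 2.0004 CPM and was called higher (log2 fold change 1.48 ± 0.42). Knockout replicate 3 carried much of that difference: without it the log2 fold change was 0.87. The same library had the highest summed level of macrophage markers, 373 CPM, against 149 and 164 CPM in the other knockout libraries, and the part of those cells was not tested. The call of Slc22a3 was lost without wild-type replicate 1 (1.26).

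Among the genes at single loci, Slc38a4, an amino acid transporter expressed from the paternal copy, was at 0.935, 0.909 and 0.828 CPM in knockout against 6.79, 4.82 and 6.80 CPM in wild type. The separation was complete and the level was 6.86-fold higher in wild type (log2 fold change -2.78 ± 0.26). Zdbf2 was close to the floor, with 3, 0 and 0 counts in knockout against 18, 15 and 11 in wild type. The ratio of the summed counts, scaled to library totals, was 0.0633 (exact 95% interval of the counts 0.0126 to 0.198), an interval that covers counting error only. Impact, a translation regulator, also fell, by less (70.9 ± 3.33 against 95.2 ± 0.71 CPM, log2 fold change -0.43 ± 0.08).

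Several well-known imprinted genes of fat and growth were not called. Grb10, an adaptor that dampens insulin and IGF1 receptor signalling, had the second highest level per length in wild type, at 41.4 CPM per kb. It read 395, 352 and 324 CPM in knockout against 337, 371 and 422 CPM in wild type (log2 fold change -0.08 ± 0.11). Gnas, the stimulatory G protein alpha subunit, read 48.2, 37.2 and 41.03 CPM against 42.6, 46.3 and 43.0 CPM (log2 fold change -0.06 ± 0.11), and 21.965% of its exon length overlaps genes of the other strand. Mest, an enzyme gene linked to fat expansion, read 2.31, 1.36 and 2.83 CPM against 1.64, 2.72 and 2.46 CPM (log2 fold change -0.06 ± 0.33), and its exons overlap those of Copg2 on the other strand over 23.1% of their length. In these 3 genes the libraries of the 2 genotypes were interleaved. Copg2 (0.03), Nap1l5 (0.05) and Nnat (-0.39) were not called, and neither was Plagl1 (-0.72), whose genotypes did not overlap. Klf14 was at 0 in every library, which allows up to 0.149 to 0.181 CPM per library, and Rasgrf1 had 0 to 4 counts.

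**Figure D3:**
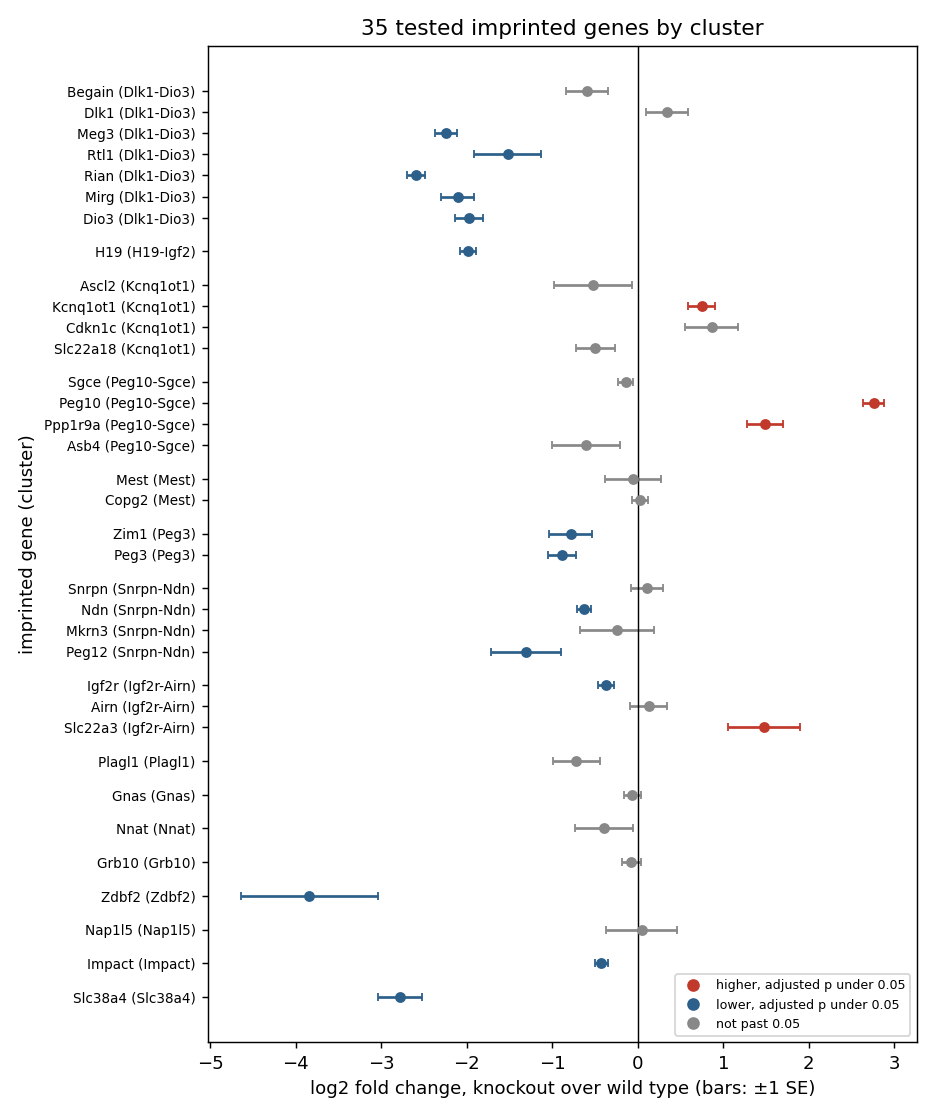
Log2 fold change of the 35 tested imprinted genes (x axis, knockout over wild type, bars ±1 SE), grouped by cluster on the y axis and coloured by call. The 5 called genes of Dlk1-Dio3 lie between -2.59 and -1.52 and Peg10 at 2.76. The fitted value of Zdbf2 rests on 3 counts in knockout.

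Grouped by the parental copy that textbooks name as active, 13 maternally expressed genes were tested, with 2 called higher and 6 lower (median log2 fold change -0.52). Of 20 paternally expressed genes, 2 were called higher and 8 lower (median -0.41). These counts come to 61.5% and 50% called, beside 44.3% of all tested genes, and nothing is read from them. Gnas and Grb10, whose active copy differs by promoter or tissue, were not called. The reads were not assigned to parental copies, so whether a gene kept its silent copy off was not measured. Within the Dlk1-Dio3 cluster genes of both parental origins were among the lower ones.

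The spread between replicates was as follows. Among the 17 listed genes with a mean of at least 100 counts, the median coefficient of variation was 11.0% in knockout and 11.4% in wild type, against 9.05% and 7.70% in the 10588 tested genes with that many. Cdkn1c varied most, at 21.2% and 46.2%. Gnas and Nnat share chromosome 2 with the targeted gene, at 6.56 Mb and 23.3 Mb from Ythdf1, and neither was called. Of chromosome 2 imprinted genes outside the list, Blcap was called higher (0.34) and H13 (-0.42) and Sfmbt2 (-1.31) lower. Mcts2 (0.16) was not called.

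**Figure D4:**
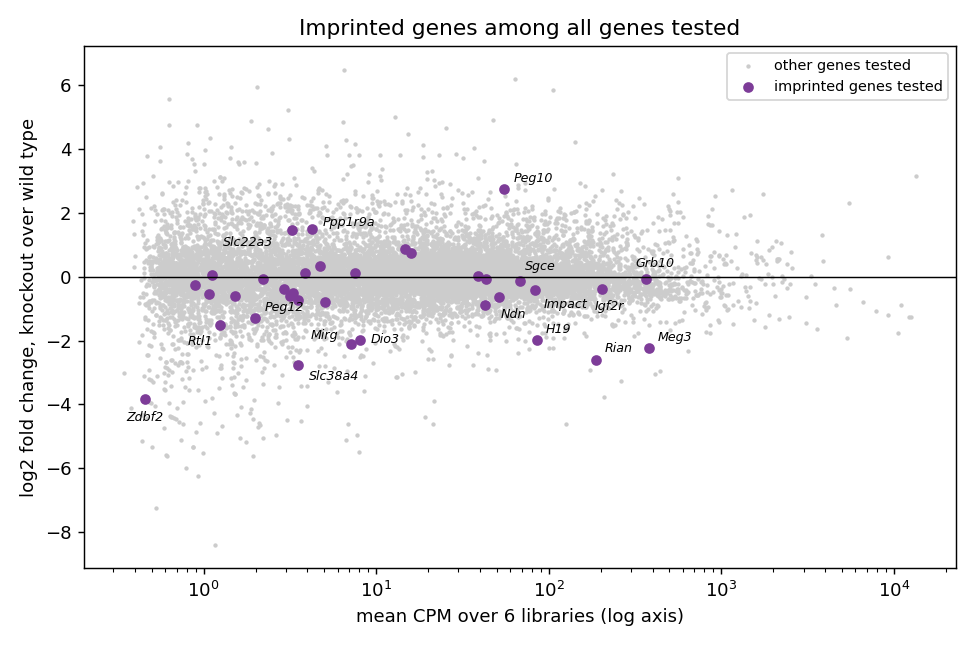
Log2 fold change, knockout over wild type (y axis), against mean level over the 6 libraries (x axis, CPM on a log axis) for 14816 tested genes (grey), with the 35 tested imprinted genes in purple. Rian (-2.59), Meg3 (-2.24) and H19 (-1.99) lie low in the cloud, as numbers 159, 205 and 261 from the lowest. Peg10 (2.76) lies high, as number 110 from the highest, while Grb10 (-0.08) lies on the axis. All tested genes run from -8.39 to 6.49.

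Imprinted genes outside the list, 48 in number, were read in the same fit. Of the 33 tested, 7 were called higher and 9 lower, 48.5%, with a median log2 fold change of -0.08. Tfpi2, a protease inhibitor gene beside the Peg10-Sgce cluster, was at 18.3 ± 2.05 CPM in knockout against 72.9 ± 7.13 CPM in wild type (log2 fold change -1.99 ± 0.11, edgeR adjusted p = 4.8e-07). Smoc1, a matrix protein gene, was at 59.2 ± 2.33 and 14.8 ± 5.38 CPM (2.01 ± 0.23, edgeR adjusted p = 0.00017). Herc3 (1.09) and Dhcr7, the last enzyme of cholesterol synthesis (1.14), also rose, and all 3 knockout libraries lay above all wild-type libraries in these rises. Tfpi2 and Peg10 thus went in opposite directions within the same stretch of chromosome 6.

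Of 29 genes that set, read or keep imprints, 27 were tested, with 4 called higher and 8 lower (44.4%, median log2 fold change -0.10). Zfp57, the zinc finger protein that guards methylated control regions, was at 4.45, 5.11 and 4.34 CPM in knockout against 14.8, 10.4 and 10.9 CPM in wild type (log2 fold change -1.38 ± 0.18, edgeR adjusted p = 9.1e-05). Its partner Trim28 (-0.54) and the maintenance methylation factor Uhrf1 (-1.03) fell as well. Tet3, which oxidises methylated cytosine, rose (0.84). Its relatives went both ways, with Tet2 called higher (0.81) and Tet1 called lower (-0.97). Uhrf1 is a gene of dividing cells, and the summed cell division markers were 182 to 300 CPM in knockout against 422 to 548 CPM in wild type. The part of cell division in these levels was not tested.

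Around all loci, 157 tested protein-coding neighbours held 33 called higher and 38 lower, 45.2%, with a median log2 fold change of -0.02. Those called at a log2 fold change of at least 1 in size were Ndufs1, Ikzf1, Acat2, Ahcyl2, Strip2, Chchd3, Fam13a, Tigd2, Ccser1, Mcee and Zfp949, all higher, and Fignl1, Slc38a1, Rapgef3, Zfp521, Aqp4, Pmepa1, Plxna4, Gabrg3, Ifitm10, Lsp1 and Shank2, all lower. Beside Slc38a4, its paralog Slc38a1 was at 2.83 against 7.34 CPM (log2 fold change -1.37). Beside Nap1l5, Fam13a, a regulator of fat cell insulin signalling, was at 90.5 against 22.3 CPM (2.02). Around Peg3, 0 of 10 neighbours were called, with log2 fold changes from -0.91 to 0.63.

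The m6A mark that YTHDF1 reads is placed mostly within short motifs, of which GGACU is a common form. In the longest GENCODE transcript of each gene, read on its own strand as GGACT, the median was 1.01 per kb in the 35 tested listed genes and 1.02 per kb in 13791 tested genes with a transcript of at least 1 kb. Rian, with 2 copies in 8089 bases (0.247 per kb), lay near the low end, and H19, with 6 copies in 2286 bases (2.62 per kb), near the high end. By call, the medians were 1.07 per kb in the 14 genes called lower, 0.953 in the 4 called higher and 0.951 in the 17 not called, and no test was made of these differences. Peg10 had 0.600 per kb and Meg3 1.10 per kb. Methylation of these RNAs was not measured.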

How the data were processed

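RNA of 3 Ythdf1 knockout and 3 wild-type libraries was read as 150 bp pairs, per the labels' protocols. The authors deposited whole-number counts per Ensembl gene, not normalized. The submitters' processing notes name STAR and featureCounts with mm10 and GRCm38. Versions, annotation, strand setting and the handling of reads shared between genes were not given in the sources used here.

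Genes were named and located with the GENCODE annotation of GRCm38 (mouse release 21). The deposited counts went into edgeR 4.0.16 under R 4.3.3 (filterByExpr with minimum count 10 and total 15, TMM factors 0.975 to 1.02, legacy robust quasi-likelihood, genotype as the single term, Benjamini-Hochberg at 0.05, 2-sided), which was tested on simulated data. The simulated data held far fewer changed genes than were called here, and nothing is read from them. Libraries of a genotype were distinct. Alternatives were RLE and upper-quartile scaling, DESeq2 1.42.0, limma-voom (limma 3.58.1), no low-count filter, a minimum of 1 CPM in 3 samples, replicate number as a block, the library name suffix as a covariate, and each replicate left out. Replicates of the series are biological, and p-values do not cover a difference in culture that coincided with genotype.

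The members and lists were chosen with earlier results of these data known. Named in full were Rian, Peg10, Dlk1, H19, Igf2, Meg3, Mest, Peg3, Cdkn1c, Gnas, Grb10, Igf2r and every other member called at a size of 1 or more in log2, and of each other list up to 4 genes with the smallest p. Neighbours were the 5 nearest tested protein-coding genes on each side of a locus, except that the locus of Peg10-Sgce had 7 in all. Kcnq1ot1, Sgce, Tet1, Tet2 and the 2 neighbours given with levels were named after their values were seen. So were Dio3os, Gm26945 and the other unlisted genes inside the cluster intervals.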

Additional observations from a re-analysis of the deposited data

How the results depend on the processing

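Over 14 alternatives, 489 values of single imprinted genes were recomputed: 468 kept their side of the threshold, 7 lost the call and 14 gained it. Among values called in the original fit or in the alternative, 0 reversed sign. Genes not called in either could change sign, such as Mest (-0.30 to 0.18 with a replicate left out). Of the 18 called genes, 15 kept the call in every alternative in which they were tested (Zdbf2 was removed by the filter of 1 CPM in 3 samples), and Zim1, Peg12 and Slc22a3 lost it when single replicates were left out. Cdkn1c passed the threshold in 7 alternatives (log2 fold change 0.86 to 1.30), Plagl1 in 6 and Begain in 1. Counts of called imprinted genes were 3 to 5 higher and 12 to 14 lower with a replicate left out, and 5 to 6 lower in the Dlk1-Dio3 cluster. No count of called genes in a list moved by over 1.5 times. Of all genes, 34.5% to 46.9% were called in the alternatives other than the absence of a low-count filter, where 24.5% of 28268 genes were.

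Same-numbered libraries did not deviate together (correlations -0.13, 0.01 and -0.14). With 3 libraries per genotype, centred on their own mean, these values cannot show whether same-numbered libraries were prepared together. With the number as a block, 6129 genes were called, 4 imprinted genes higher and 14 lower. At this depth, genes under about 10 counts per library, such as Igf2, Phlda2, Usp29 and Rasgrf1, could not be compared.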
